A study of Rattus norvegicus with 4 samples.

Results

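The miRNAs described here are the products numbered miR-320, miR-484, miR-877 and miR-1224 in rat, with any arm suffix, which gave 5 of the 740 miRNA names in the count table: rno-miR-320-3p, rno-miR-320-5p, rno-miR-484, rno-miR-877 and rno-miR-1224. They were selected on their numbers, with the percents and the ratios of matrix vesicles (MVs) to cells in these libraries already known, so that those values are given as a description. Small RNA had been sequenced from the resting zone (RC) and growth zone (GC) chondrocytes of rat costochondral cartilage and from the MVs of each, called RC-cells, GC-cells, RC-MVs and GC-MVs, with 1 library per group and all cells at passage 4. The chondrocytes had been grown to confluence in medium with ascorbic acid and fetal bovine serum described as exosome-free, with no treatment that differed between groups. The MVs had been pelleted by ultracentrifugation from the trypsin digest of the cell layer, to which serum described as exosome-free had also been added. MVs are the small membrane vesicles that chondrocytes leave in the extracellular matrix, and the study asked which miRNAs they hold. The methods name male Sprague Dawley rats as the source of the cartilage.

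Most miRNAs are cut by Drosha in the nucleus and then by Dicer in the cytoplasm. The miRNAs described here are known to skip the Drosha step. Transcription of Mir320a and Mir484 starts at the end of the precursor hairpin itself, so that the hairpin carries a 5′ cap, and the 3p strand is the one that is mainly used. Mir877 and Mir1224 are mirtrons, short introns that are cut out by the splicing machinery and folded into a hairpin. The read counts do not show how a precursor was cut, so this grouping is background.

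The cell libraries held 6517329 (RC) and 7414467 (GC) miRNA reads, and the MV libraries 1108821 (RC) and 982543 (GC). Levels are given as the percent of all miRNA reads in a library, and ratios are ratios of these percents. Since no group had a second library, no difference was tested against replicates, and 95% intervals cover counting error only. The paper does not say whether reads were tagged as single molecules, so PCR copies may have been counted as separate reads. The cartilage miRNAs miR-140, miR-455 and miR-675, 6 names in all, summed to between 0.526% (RC-cells) and 1.00% (RC-MVs) of miRNA reads. Most of this was miR-140-3p. Of the 4 names with a ratio, 1 was at least 2-fold higher and 2 lower in RC-MVs, where 33.6% of all miRNAs were higher and 30.4% lower. In GC-MVs, 0 were higher and 2 lower, where 32.1% of all miRNAs were higher and 25.2% lower. miR-140-5p was at 0.0710% in the RC-cells and 0.00848% in the RC-MVs, while miR-675-5p was at 0 in all 4 libraries.

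The mature sequences of miR-484, miR-877 and miR-1224 are shown because their ends and base composition bear on what follows. They were taken from RefSeq (build GRCr8, not the Rnor_6.0 build of the counts), and the seed, bases 2 to 8 from the 5′ end, is in capitals. Of the 740 names, 660 had a sequence in that table, miR-320-3p and miR-320-5p not among them.

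miR-484: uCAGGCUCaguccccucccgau

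miR-877: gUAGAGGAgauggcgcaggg

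miR-1224: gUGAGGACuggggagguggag

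In GRCr8, miR-484 lies at chr10:1394915-1394936 on the minus strand, miR-877 at chr20:2816284-2816303 on the plus strand and miR-1224 at chr11:93811355-93811375 on the minus strand. The 3 seeds differed from each other, and no other miRNA among the 660 shared any of them. All 3 miRNAs were rich in G and C, with 63.6% in miR-484, 65.0% in miR-877 and 66.7% in miR-1224, against a median of 47.8% over the 660 sequences.

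The hairpins of the mirtrons show the intron ends, which are in capitals.

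Mir877 hairpin: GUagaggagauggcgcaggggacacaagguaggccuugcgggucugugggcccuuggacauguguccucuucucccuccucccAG

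Mir1224 hairpin: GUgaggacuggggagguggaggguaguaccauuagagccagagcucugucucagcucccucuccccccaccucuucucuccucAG

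Both hairpins began with GU and ended with AG, the bases that mark the start and the end of most introns, and both lay inside a protein-coding gene, Mir877 in Abcf1 and Mir1224 in Vwa5b2. Only 4 of the 419 hairpins in the table (0.955%) had both ends. The mature miR-877 and miR-1224 started at the first base of their hairpins, so that their own 5′ end was the GU. The Mir484 hairpin had neither end and lay inside no protein-coding gene, its nearest one being Marf1. Mir320a, on chromosome 15, lay next to Polr3d, which encodes a subunit of RNA polymerase III.

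miR-320-3p was by far the most abundant of these miRNAs. In the resting zone it had 8411 reads in the cells and 38787 in the MVs, and in the growth zone 6111 and 12308. Its share of miRNA reads was 0.129% for RC-cells against 3.50% for RC-MVs, and 0.0824% for GC-cells against 1.25% for GC-MVs, and none of the 4 intervals overlapped. The order of its levels was therefore RC-MVs, GC-MVs, RC-cells and GC-cells. It ranked 5th among all miRNAs in RC-MVs and 9th in GC-MVs, but 56th in RC-cells and 64th in GC-cells. It made up between 97.4% (GC-cells) and 99.9% (RC-MVs) of the reads of the 5 names, so that a sum over these names describes miR-320-3p alone.

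Set against its cells, the share of miR-320-3p was 27.1-fold higher for RC-MVs (26.5 to 27.8) and 15.2-fold higher for GC-MVs (14.7 to 15.7). At the share found in the cells, the RC-MV library would have held 1431 reads and the GC-MV library 810. Over all miRNAs with a ratio it ranked 14th of 414 in the resting zone and 16th of 417 in the growth zone, and the miRNAs above it had at most 32 (RC-cells) and 34 (GC-cells) reads in the cells, those of miR-122-5p. Among the 140 miRNAs with at least 1000 reads in RC-cells, it had the largest ratio, followed by miR-134-5p at 11.9-fold, and the median ratio was 0.756. Among the 139 such miRNAs in the growth zone it was again the largest, but miR-423-5p was close, at 15.0-fold (14.3 to 15.6), and these intervals overlapped.

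The miRNAs next to miR-320-3p in rank show how far it moved in the order. In RC-cells it stood between miR-27a-3p with 8591 reads and miR-532-5p with 8051. In RC-MVs, miR-27a-3p was at 0.0173% of miRNA reads, a 7.61-fold lower share, and miR-532-5p had 1307 reads, a ratio of 0.954. In GC-cells it stood between miR-148a-5p with 6284 reads and miR-140-5p with 5993. In GC-MVs, miR-148a-5p had 2858 reads, a 3.43-fold higher share, and miR-140-5p had 212, a 3.75-fold lower share. Of miRNAs at the same level in the cells, then, some were lower, some about equal and some higher in the vesicles, and miR-320-3p was the highest of these.

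Between the vesicles, the share of miR-320-3p in RC-MVs exceeded that in GC-MVs 2.79-fold (2.74 to 2.85), a value that was 1.80 with totals that leave out the 3 most abundant RC-MV miRNAs. Between the cells it was 1.57-fold higher in RC-cells (1.51 to 1.62), where the median ratio over all 474 miRNAs with reads in both was 1.18. The MV-to-cell ratio was thus 1.78 times as large in the resting zone as in the growth zone (1.72 to 1.85, a Wald interval for counting error). Over the 262 miRNAs for which each of the 4 libraries had 10 reads or more, the median of this quantity was 0.998, and miR-320-3p ranked 38th from the highest.

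The other arm of the same hairpin, miR-320-5p, had 1 read in each cell library and 0 in each MV library. It was 0.0119% of the reads of both arms in RC-cells (95% Wilson interval from 0.00210% to 0.0673%) and 0.0164% in GC-cells. For 0 of 38787 in RC-MVs and 0 of 12308 in GC-MVs, 3 reads would be 0.00773% and 0.0244%, and the upper Wilson limits are 0.00990% and 0.0312%. Over precursors with at least 1000 reads of both arms together, the lesser arm held a median of 1.40% of these reads in RC-cells (119 precursors) and 1.08% in GC-cells (118 precursors), and Mir320a ranked 5th from the lowest in both. In the vesicles it was among 9 of 68 precursors in RC-MVs and 7 of 56 in GC-MVs whose lesser arm had no read. The high level of miR-320-3p in MVs was therefore that of the 3p strand alone, as in the cells.

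**Figure D1:**
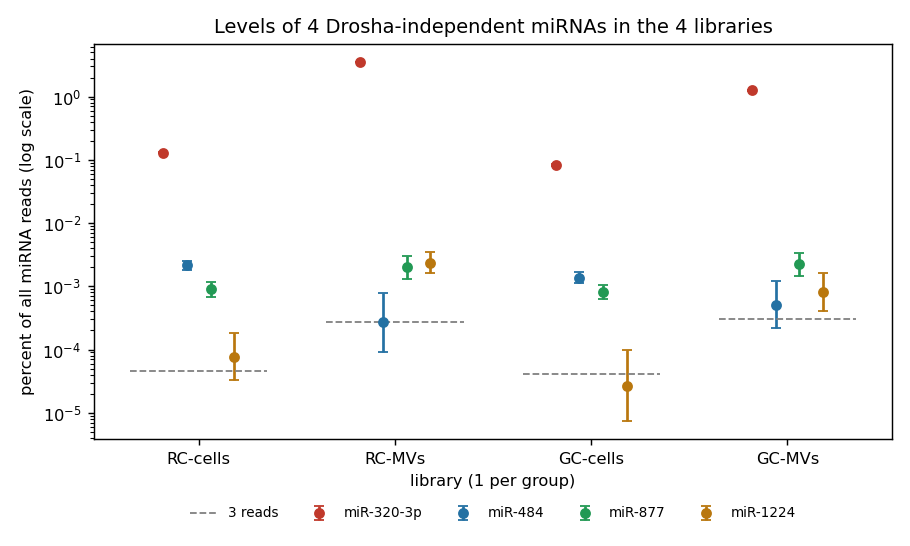
Percent of all miRNA reads (log axis) of miR-320-3p, miR-484, miR-877 and miR-1224 in the 4 libraries, with 95% Wilson intervals for counting error as bars and the level of 3 reads as dashed lines. miR-320-3p lies above the others in each library and reaches 3.50% in RC-MVs, whereas miR-484 is at the level of 3 reads there.

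miR-484, whose precursor is capped like that of miR-320, went the other way. It had 141 reads in the cells and 3 in the MVs of the resting zone, or 0.00216% and 0.000271% of miRNA reads. In the growth zone it had 102 reads in the cells and 5 in the MVs, or 0.00138% and 0.000509%. Its levels were higher in both cell libraries than in both vesicle libraries. The intervals of RC-MVs and GC-MVs overlapped, and those of GC-cells and GC-MVs overlapped slightly at their ends. At the share of the cells, the RC-MV library would have held 24.0 reads and the GC-MV library 13.5.

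The share of miR-484 in RC-MVs was 0.125 times that in RC-cells (0.0255 to 0.373), and in GC-MVs it was 0.370 times that in GC-cells (0.118 to 0.892). With a loess correction for the G and C content of the miRNAs these ratios were 0.0495 and 0.176. From the lowest, miR-484 ranked 32nd of the 414 miRNAs with a ratio in the resting zone and 74th of 417 in the growth zone. Between the zones it was 1.57-fold higher in RC-cells than in GC-cells (1.21 to 2.05), nearly the same ratio as for miR-320-3p. Its ratio of RC-MVs to GC-MVs was 0.532 with a wide interval from 0.0826 to 2.73. This ratio was past 2-fold, at 0.343, with totals that leave out the 3 most abundant RC-MV miRNAs, and at 0.374 with the loess correction. It was also past 2-fold with TMM normalization (0.462) and size factors (0.448). The MV-to-cell ratio of the resting zone was 0.338 times that of the growth zone (0.0790 to 1.45), so that a difference between the zones was not detectable at this depth.

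The number of miR-320-3p reads per miR-484 read needs no scaling between libraries. It was 59.7 in RC-cells (50.5 to 71.0) and 59.9 in GC-cells (49.3 to 73.6). In the vesicles it was 12929 in RC-MVs (4424 to 62697) and 2462 in GC-MVs (1055 to 7583). In these libraries, 1 per group, these miRNAs with capped precursors thus stood in about the same proportion in RC-cells and GC-cells. Their proportion in the vesicle libraries was far from that of the cells. In the paper's PCR array, by contrast, miR-484 was detected in RC-cells but not in GC-cells. It is also not among the miRNAs that the paper lists as differing between RC-MVs and RC-cells on that array.

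miR-877 had 58 reads in the cells and 22 in the MVs of the resting zone, or 0.000890% and 0.00198% of miRNA reads. In the growth zone it had 61 reads in the cells and 22 in the MVs, or 0.000823% and 0.00224%. Both vesicle libraries were above both cell libraries, with no overlap between the intervals of vesicles and cells, while the zones overlapped within each kind of sample. Relative to the cells, the share was 2.23-fold higher for RC-MVs (1.30 to 3.70) and 2.72-fold higher for GC-MVs (1.59 to 4.50). Both intervals reached below 2-fold. With the loess correction for G and C these ratios were 0.809 and 1.19, and with totals that leave out the 3 most abundant RC-MV miRNAs the first was 1.93. Between the zones, the ratio was 0.886 for RC-MVs to GC-MVs (0.468 to 1.68) and 1.08 for RC-cells to GC-cells (0.742 to 1.58), and the MV-to-cell ratios of both zones stood at 0.819 to each other (0.410 to 1.64).

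miR-1224, the other mirtron, had 5 reads in the cells and 26 in the MVs of the resting zone, or 7.67e-05% and 0.00234% of miRNA reads. In the growth zone it had 2 reads in the cells and 8 in the MVs, or 2.70e-05% and 0.000814%. The vesicle libraries had more reads than the cell libraries in absolute number, although they were far smaller in total, and at the share of the cells RC-MVs would have held 0.851 reads and GC-MVs 0.265. The intervals of vesicles and cells did not overlap in either zone. The ratio was 30.6 for RC-MVs to RC-cells (11.5 to 102) and 30.2 for GC-MVs to GC-cells (6.02 to 292), the latter with only 2 reads in the cells. With a loess correction for the G and C content of the miRNAs these ratios were 10.0 and 12.0. In rank, miR-1224 was 12th of 414 and 9th of 417 miRNAs.

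Between the vesicles, the share of miR-1224 in RC-MVs exceeded that in GC-MVs 2.88-fold (1.27 to 7.36). This value was 1.86 with totals that leave out the 3 most abundant RC-MV miRNAs and 1.96 with the loess correction. Between the cells the ratio of 2.84 had an interval from 0.466 to 29.9. For each miR-877 read there were 0.0862 reads of miR-1224 in the RC-cells (0.0270 to 0.213) against 1.18 in the RC-MVs (0.644 to 2.19). For the growth zone the same values were 0.0328 in GC-cells (0.00388 to 0.124) and 0.364 in GC-MVs (0.140 to 0.848). The mirtrons also differed from each other, then, in how much of them was found in vesicles.

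Of the 5 names, 4 had reads in both libraries of each MV-to-cell comparison. In the resting zone, 3 of the 4 were at least 2-fold higher in RC-MVs, a call that 33.6% of all 414 miRNAs met, and 1 was at least 2-fold lower, which 30.4% met. Growth zone calls were the same, 3 of 4 higher against 32.1% of 417 miRNAs and 1 lower against 25.2%. The call of miR-877 was lost in the resting zone under both alternatives given for it above and in the growth zone with the loess correction. The median log2 ratio of the 4 miRNAs was 2.96 for the resting zone and 2.69 for the growth zone, beside 0.08 and 0.13 over all miRNAs. Since the MV-to-cell ratios were known when these miRNAs were chosen, nothing is read from these counts. Between the vesicles of both zones, 2 of 4 differed by at least 2-fold, miR-320-3p and miR-1224, against 39.3% of 397 miRNAs. With totals that leave out the 3 most abundant RC-MV miRNAs both were under 2-fold (1.80 and 1.86), and miR-484 was past it, 2.91-fold lower. Between the cells, 1 of 5 did, miR-1224 with 5 and 2 reads, against 19.4% of 474 miRNAs.

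**Figure D2:**
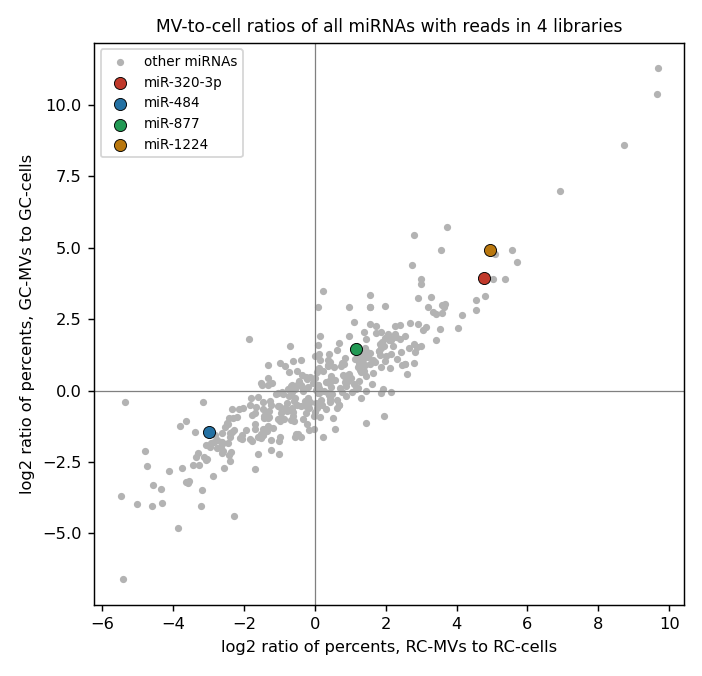
The log2 ratio of RC-MVs to RC-cells (horizontal) and of GC-MVs to GC-cells (vertical) for the 384 miRNAs with reads in all 4 libraries. miR-1224, miR-320-3p and miR-877 lie above 0 on both axes and miR-484, at -3.00 and -1.43, lies below 0 on both.

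Base composition went along with the MV-to-cell ratio over all miRNAs, and miR-484, miR-877 and miR-1224 lay at its GC-rich end. For miRNAs that had a sequence and 10 reads or more on both sides of the ratio, Spearman's rho between the percent of G and C and the log2 ratio was 0.56 for the resting zone (265 miRNAs) and 0.51 for the growth zone (251 miRNAs), given as a description across miRNAs of the same libraries. In the resting zone the median log2 ratio was -2.35 for 37 miRNAs under 40% G and C and 1.35 for 40 miRNAs at 60% or more. For the growth zone these medians were -1.34 for 41 miRNAs and 1.53 for 38 miRNAs. The ratios of the GC-rich miRNAs ran from -0.59 to 3.68 for RC-MVs and from -1.62 to 3.29 for GC-MVs.

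miR-877, with log2 ratios of 1.16 and 1.44, stood close to these GC-rich medians. miR-1224, at 4.93 and 4.92, stood above the range of these GC-rich miRNAs with 10 reads on both sides in both zones. miR-484 stood below their range in the resting zone, at -3.00, and near its lower end in the growth zone, at -1.43. Neither had the 10 reads on both sides that were asked of the GC-rich miRNAs. A loess correction of the log2 ratio for G and C left miR-877 at a ratio of 0.809 for the resting zone and 1.19 for the growth zone, so that its 2-fold call was lost in both and its direction turned in the resting zone. The ratios of miR-1224 went from 30.6 to 10.0 and from 30.2 to 12.0, the first of them below its counting interval, and miR-484 was lower still, 20.2-fold and 5.68-fold. No correction was run for miR-320-3p. Whether base composition plays a part in these ratios was not tested.

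**Figure D3:**
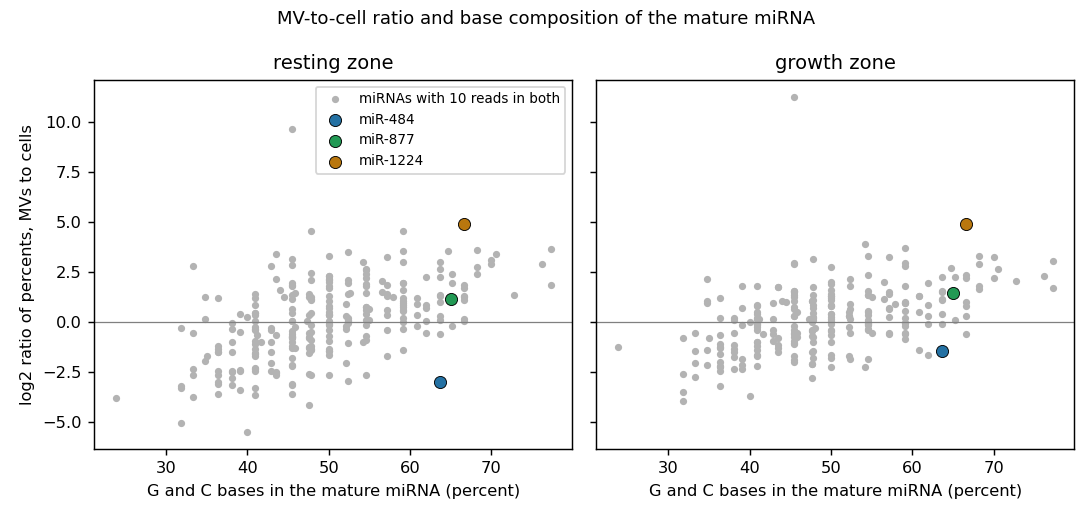
The log2 ratio of MVs to cells against the percent of G and C bases in the mature miRNA, in the resting zone (left) and the growth zone (right), with grey points for miRNAs that had 10 reads or more on both sides. At 63.6% to 66.7% G and C, miR-1224 lies above, miR-877 among and miR-484 below the bulk of the GC-rich miRNAs.

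Other miRNAs with unusual processing were taken from a list of mirtrons, miRNAs that overlap small nucleolar or Cajal body RNAs, and the erythroid cluster of miR-144 and miR-451, of which miR-451 needs Drosha but not Dicer. This list held 11 names, of which 8 had reads in both libraries of the resting zone and 9 in those of the growth zone. In the resting zone 4 of the 8 were at least 2-fold higher in RC-MVs, against 33.6% of all miRNAs, 4 were within 2-fold and 0 lower, against 30.4%. This leaves out miR-664-3p, for which RC-cells had 333 reads and RC-MVs 0. Of the 9 growth zone names, 5 were higher in GC-MVs, against 32.1%, 2 lower, against 25.2%, and 2 within 2-fold. The highest ratios in both zones were those of miR-451-5p and miR-144-3p, which are miRNAs of red blood cells.

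Mir702, which lies in Plod3 and was listed as a mirtron, has a hairpin in the RefSeq table that begins with GU but does not end with AG. Its more abundant product did not go with miR-1224. miR-702-3p had 332 reads in the cells and 50 in the MVs of the resting zone, and 394 and 20 in those of the growth zone. Its ratio was 0.885 in the resting zone (0.644 to 1.19), and its share was 2.61-fold lower in GC-MVs than in GC-cells (1.67 to 4.32). The other arm, miR-702-5p, had 6 and 2 reads in the resting zone and 4 and 2 in the growth zone, with ratios of 1.96 (0.193 to 11.0) and 3.77 (0.341 to 26.3), so that its direction was not detectable at this depth. miR-1839-5p, from the Cajal body RNA gene Scarna15, had 1240 reads in RC-cells against 270 in RC-MVs, and 1462 in GC-cells against 348 in GC-MVs, with ratios of 1.28 (1.12 to 1.46) and 1.80 (1.59 to 2.02). The wider list therefore did not share 1 direction.

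**Figure D4:**
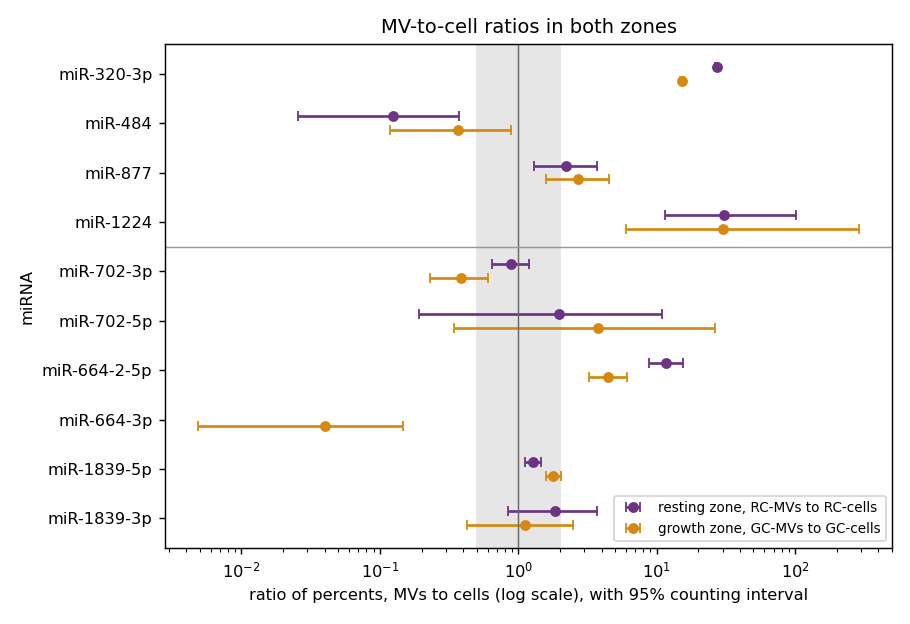
Ratio of percents, MVs to cells (log axis), with exact 95% counting intervals, for the resting zone (purple) and the growth zone (orange). The 4 miRNAs above the line are those described here, the ones below it come from the list of other unusually processed miRNAs, and the grey band marks ratios within 2-fold. miR-320-3p and miR-1224 are far to the right in both zones, miR-484 is to the left, and miR-702-3p is within 2-fold or to the left.

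By its pattern over the 4 libraries (distance of centred log2 percents, among the same 262 miRNAs), miR-320-3p was most like miR-92a-1-5p, miR-615 and miR-134-5p, at distances of 0.59, 0.99 and 1.07. miR-92a-1-5p had 11 reads in each cell library, 44 in RC-MVs and 13 in GC-MVs, while miR-134-5p ranked next to miR-320-3p in the vesicles, just below it in RC-MVs and just above it in GC-MVs, at 38061 reads (RC-MVs) and 12518 reads (GC-MVs). miR-877 was most like miR-425-5p, miR-423-3p and miR-210-3p, at distances of 0.06, 0.23 and 0.29. miR-425-5p had ratios of 2.25 and 2.56 in the resting and growth zone, close to those of miR-877. miR-484 and miR-1224 had too few reads for this comparison.

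Markers of other tissues also moved with the vesicles. The blood cell list of 10 names (miR-142, miR-144, miR-150, miR-223 and miR-451) summed to 0.00127% (RC-cells) and 0.00124% (GC-cells) of miRNA reads but to 0.0889% in RC-MVs and 0.190% in GC-MVs. All 8 of its names with reads in both libraries were at least 2-fold higher in RC-MVs, and all 6 in GC-MVs, where 33.6% and 32.1% of all miRNAs were higher and 30.4% and 25.2% lower. miR-451-3p had no read in any library and miR-223-3p none in GC-cells. The liver and serum list of 6 names (miR-122, miR-192 and miR-194) summed to 0.0286% in RC-cells and 0.0395% in GC-cells but to 0.419% in RC-MVs and 1.18% in GC-MVs, of which miR-122-5p made up most. Of its 4 names with a ratio, 2 were at least 2-fold higher and 1 lower in RC-MVs, and 2 were higher and 0 lower in GC-MVs. The lower one was miR-194-5p, at 0.00413% of reads in the RC-cells and 0.000902% in the RC-MVs. The muscle list of 8 names summed to 0.000368% in cells and 0.00171% in MVs of the resting zone, and to 0.000715% and 0.00733% in those of the growth zone, with 1 of 1 and 4 of 4 names at least 2-fold higher in the vesicles. All 3 lists summed to a higher percent of miRNA reads in GC-MVs than in RC-MVs. Among their names, miR-122-5p was at 0.401% in RC-MVs and 1.14% in GC-MVs, and miR-150-5p at 0.00298% and 0.00417%. The paper's RT-qPCR gave the opposite order, with both significantly higher in RC-MVs, while its PCR array listed both as lower in RC-MVs. The part of blood, liver or serum RNA in the levels of miR-320-3p and miR-1224 was not tested.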

How the data were processed

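Per the paper's methods, the authors sequenced small RNA on an Illumina HiSeq, aligned reads with Bowtie2 to Rnor_6.0 and tabulated them with miARma-Seq. The deposited values are raw counts of reads, 1 row for each annotated locus. How reads were trimmed, and how those matching more than 1 locus were counted, is not given in the sources used here.

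Counts of loci with the same mature name were added (774 loci, 740 names; each miRNA described here has 1 locus) and divided by all miRNA reads of the library. A ratio needed at least 1 read in both libraries and was called at 2-fold. Shares have Wilson intervals and ratios exact Clopper-Pearson intervals (95%, counting error only). With 1 library per group no test between conditions was made. Intervals and 2-fold calls were tried on simulated counts with counting error only, which hold no variation between libraries. The members, lists and alternatives were chosen with earlier results of these data known. Named were all members, the other listed miRNAs, the 3 miRNAs nearest in pattern, those sharing a seed and the rank neighbours of miR-320-3p. Further, miR-423-5p and miR-1247-3p were added after their values were seen. Alternatives were TMM normalization (edgeR), size factors (DESeq2), totals without abundant miRNAs or without miR-320-3p, minimum reads, other thresholds, a pseudocount of 0.5, each locus as deposited and a loess correction for G and C (statsmodels, span 0.75). Sequences, host genes and neighbours came from RefSeq tables of GRCr8. Python 3.11.15, numpy 2.4.6, pandas 2.3.3, scipy 1.17.1, statsmodels 0.14.6, matplotlib 3.10.9, R 4.3.3, edgeR 4.0.16 and DESeq2 1.42.0 were used.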

Additional observations from a re-analysis of the deposited data

How the results depend on the processing

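Each group had 1 library, so MVs and cells could be paired by zone only. A fit of MVs against cells over both zones, with zone as a block, was not run. The ratios of miR-320-3p for RC-MVs to RC-cells, GC-MVs to GC-cells, RC-MVs to GC-MVs and RC-cells to GC-cells were 25.4, 13.0, 2.43 and 1.24 with TMM normalization, 26.4, 13.7, 2.35 and 1.22 with size factors, and 23.4, 16.3, 1.80 and 1.26 with totals that leave out the 3 most abundant RC-MV miRNAs, where the 2-fold call between the vesicles was lost. Without miR-320-3p in the totals they were 28.1 for RC-MVs to RC-cells and 2.86 between the vesicles. Its difference between the zones was 1.96 with TMM, 1.92 with size factors and 1.44 without the 3 abundant miRNAs. Of the 90 values of the other members under alternatives, 87 stayed inside their counting interval and 9 crossed the 2-fold line. With the loess correction for G and C, miR-877 had ratios of 0.809 and 1.19 to the cells and miR-1224 had 10.0 for RC-MVs to RC-cells, the 3 values outside their intervals, and without the 3 abundant miRNAs the resting zone ratio of miR-877 was 1.93. For RC-MVs to GC-MVs, miR-1224 went under 2-fold under both of these settings (1.96 and 1.86), and miR-484 went past it, between 2.16-fold and 2.91-fold lower, under TMM, size factors, the reduced totals and the loess correction. The loess correction was run for miR-484, miR-877 and miR-1224.

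The share of miRNAs at least 2-fold different was 64.0% for RC-MVs to RC-cells, 57.3% for GC-MVs to GC-cells, 39.3% between the vesicles and 19.4% between the cells. In this order it was 34.5%, 24.2%, 8.06% and 4.22% at 4-fold, and 43.2%, 32.1%, 15.4% and 5.06% with the whole interval beyond 2-fold. When 10 reads were required on both sides, it was 52.4% for GC-MVs to GC-cells, 35.8% between the vesicles (97 against 156 miRNAs, with fewer tested) and 13.2% between the cells (50 against 92). TMM, size factors and the reduced totals shifted all log2 ratios by -0.20, -0.25 and -0.63 between the vesicles and by -0.34, -0.36 and -0.32 between the cells. The part of calls that were higher in the resting zone went from 62.8% to 51.0%, 46.4% and 24.5% between the vesicles and from 70.7% to 40%, 37.6% and 40.7% between the cells. Under the same settings, the part of MV-to-cell calls that were higher in RC-MVs went from 52.5% to 50.4%, 51.3% and 47.9%. For GC-MVs it went from 56.1% to 48.1%, 49.6% and 60.5%. Depth limits miR-484 in vesicles and miR-1224 in cells, which rest on 2 to 5 reads.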

Other observations

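The arms of miR-664, which overlaps a small nucleolar RNA, were found on opposite sides of the MV-to-cell comparison. Summed over its loci Mir664-1 and Mir664-2, miR-664-3p had 333 reads in the cells and 0 in the MVs of the resting zone, and 374 and 2 in those of the growth zone. Its share was 24.8-fold lower in GC-MVs than in GC-cells (95% interval from 6.81 to 205). miR-664-2-5p, from the other arm at Mir664-2, had 77 reads in the cells and 152 in the MVs of the resting zone, and 108 and 64 in those of the growth zone. Its ratio of MVs to cells was 11.6 for the resting zone (8.76 to 15.5) and 4.47 for the growth zone (3.23 to 6.15). The percent of G and C was 40.9% in miR-664-3p and 52.4% in miR-664-2-5p. How reads of miR-664-3p that match both loci were counted is not given in the sources used here. These values were picked out after they were seen and rest on 1 library per group.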
